A study of Mus musculus with 12 samples.

Results

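Glycolysis, glycogen and pentose phosphate enzymes were followed as a set of 37 genes on 12 Illumina mouse bead arrays. Their probes were found by gene symbol in the platform annotation, with older symbols, such as Pkm2 for Pkm, updated by Entrez identifier. This search used no measured value, but the members were chosen with earlier results of these data known. At least 1 probe was annotated for 33 of the 37 genes, and 32 passed the detection filter, among 10873 genes in all. Hk2, Gpi1, Eno1 and G6pdx had no annotated probe and were not analysed here, and the single probe of Pgm2 was not detected well enough to be kept.

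The arrays hold RNA of mouse embryonic fibroblasts (MEFs), connective tissue cells cultured from mouse embryos, of genotype TAp73-/- or TAp73+/+. TAp73 is the class of p73 proteins that carry the transactivation domain, and Trp73 is the gene. The 6 groups are TAp73-/- cells and TAp73+/+ cells, each untreated at 21% oxygen or kept at 1% oxygen (hypoxia) for 4 or 8 h, with 2 arrays per group. The labels name neither the embryos nor the number of MEF lines behind a genotype, and do not say whether both arrays of a group come from separate cultures. Genotype and cell line cannot be told apart, and the p-values may measure technical spread only. No array was kept at 21% oxygen for 4 or 8 h, so low oxygen and time in culture cannot be told apart either.

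Glycolysis splits glucose into pyruvate in the cytosol and yields ATP without oxygen. Lactate dehydrogenase then turns pyruvate into lactate, while the pyruvate dehydrogenase complex turns it into acetyl-CoA inside mitochondria. Glycogen stores glucose units, and the pentose phosphate pathway takes glucose 6-phosphate towards NADPH and ribose. In low oxygen the transcription factor HIF-1 is known to raise many glycolytic genes through the hypoxia response element, whose core reads ACGTG or GCGTG.

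Mean signal per array was 429 to 608, and 42.8% to 44.5% of the 45281 probes were detected. Arrays of one group correlated at r = 0.995 to 0.997 across probes. Trp73 was read by 1 probe that was undetected on all 6 TAp73+/+ arrays, and its TAp73-/- signal exceeded the TAp73+/+ one by at least 1.73-fold at 4 h and at least 2.25-fold at 8 h. Whether that probe lies in the deleted part is not given in the sources used here, so it does not check the labels. Of 12 fibroblast markers, Col6a1, Pdgfra, Thy1, Vim and Fn1 were detected on all 12 arrays, while the defining collagen genes Col1a1 and Col1a2, with Dcn and Lum, were detected on none. Of 6 epithelial markers, Cdh1 and Krt18 were detected on all 12 arrays, and Epcam, Krt5 and Krt14 on none. Of 6 endothelial markers none was detected on all 12 arrays, with Pecam1, Tie1 and Vwf on none. Macrophage (Ptprc, Adgre1, Itgam), muscle (Myod1, Ckm, Acta1), adipocyte (Adipoq, Plin1, Fabp4, Cidec) and neural (Sox10, Gfap) markers were undetected on every array, while Cd14, Des, Map2 and Nes of those lists were detected on all 12.

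Marker levels and a probe score moved with the groups. The summed normalised signal of the fibroblast markers was 7207 to 8706 in untreated TAp73-/- cells, 8267 to 9465 at 4 h and 9486 to 11187 at 8 h. In TAp73+/+ cells it was 3553 to 4637 untreated, 8127 to 8577 at 4 h and 7104 to 7991 at 8 h, so untreated TAp73+/+ cells were lowest. The sum of the epithelial markers was 6713 to 7568 in untreated TAp73-/- cells, 6738 to 7702 at 4 h and 7802 to 8427 at 8 h. It was 4636 to 4706 in untreated TAp73+/+ cells, 5561 to 5732 at 4 h and 5569 to 5908 at 8 h. The probe score is the first principal component of the differences between probes of one gene, over 4571 genes, and held 50.2% of their variance. In TAp73-/- cells the scores were -0.10 and -0.13 without hypoxia, -0.36 and -0.37 after 4 h, and -0.24 and -0.09 after 8 h. In TAp73+/+ cells they were 0.59 and 0.39 without hypoxia, -0.08 and -0.10 after 4 h, and 0.19 and 0.30 after 8 h. The part of the markers in the results was not tested, and results with the probe score as a covariate are given further on.

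The glycolytic trunk and a group of glycogen genes were higher at low oxygen than in untreated cells of both genotypes, while no pentose phosphate gene was called higher. All values are log2 normalised signals or differences of them, given with the standard error of the model fitted with limma, and a gene was called at an adjusted p below 0.05 over all 10873 genes. In TAp73-/- cells, 9 of the 32 members were called higher at 4 h and none lower, and 18 were higher and none lower at 8 h. Over all genes tested, 3.13% were called higher and 3.84% lower at 4 h in these cells, and 10.6% higher and 10.2% lower at 8 h. In TAp73+/+ cells, 13 members were higher and 2 lower at 4 h, where all genes gave 12% higher and 16% lower. At 8 h in TAp73+/+ cells 18 were higher and 2 lower, where all genes gave 11.6% higher and 12.3% lower. The 2 lower members were Dlat and Pgd at both times. Pgd passed the detection filter only through the untreated TAp73+/+ arrays, where it was highest, so its lower calls are not independent of that filter. In such bulk RNA, fewer cells of a type and less RNA per cell cannot be told apart.

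The median change of the 32 members in TAp73-/- cells was 0.12 at 4 h and 0.46 at 8 h, beside -0.03 and 0.00 over all genes. In TAp73+/+ cells it was 0.22 at 4 h and 0.52 at 8 h, beside -0.06 and -0.02 over all genes. No member was called lower in TAp73-/- cells by limma, although at an unadjusted p below 0.05 there were 2 lower members at 4 h and 4 at 8 h. By role, the genes called higher at 8 h in both genotypes were all 7 measured genes of upper glycolysis, 4 of 5 of lower glycolysis, 1 of 2 lactate dehydrogenase genes, 5 of 8 glycogen genes, none of 4 pyruvate dehydrogenase genes and none of 6 pentose phosphate genes. The plot of the changes at low oxygen shows each member.

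**Figure D1:**
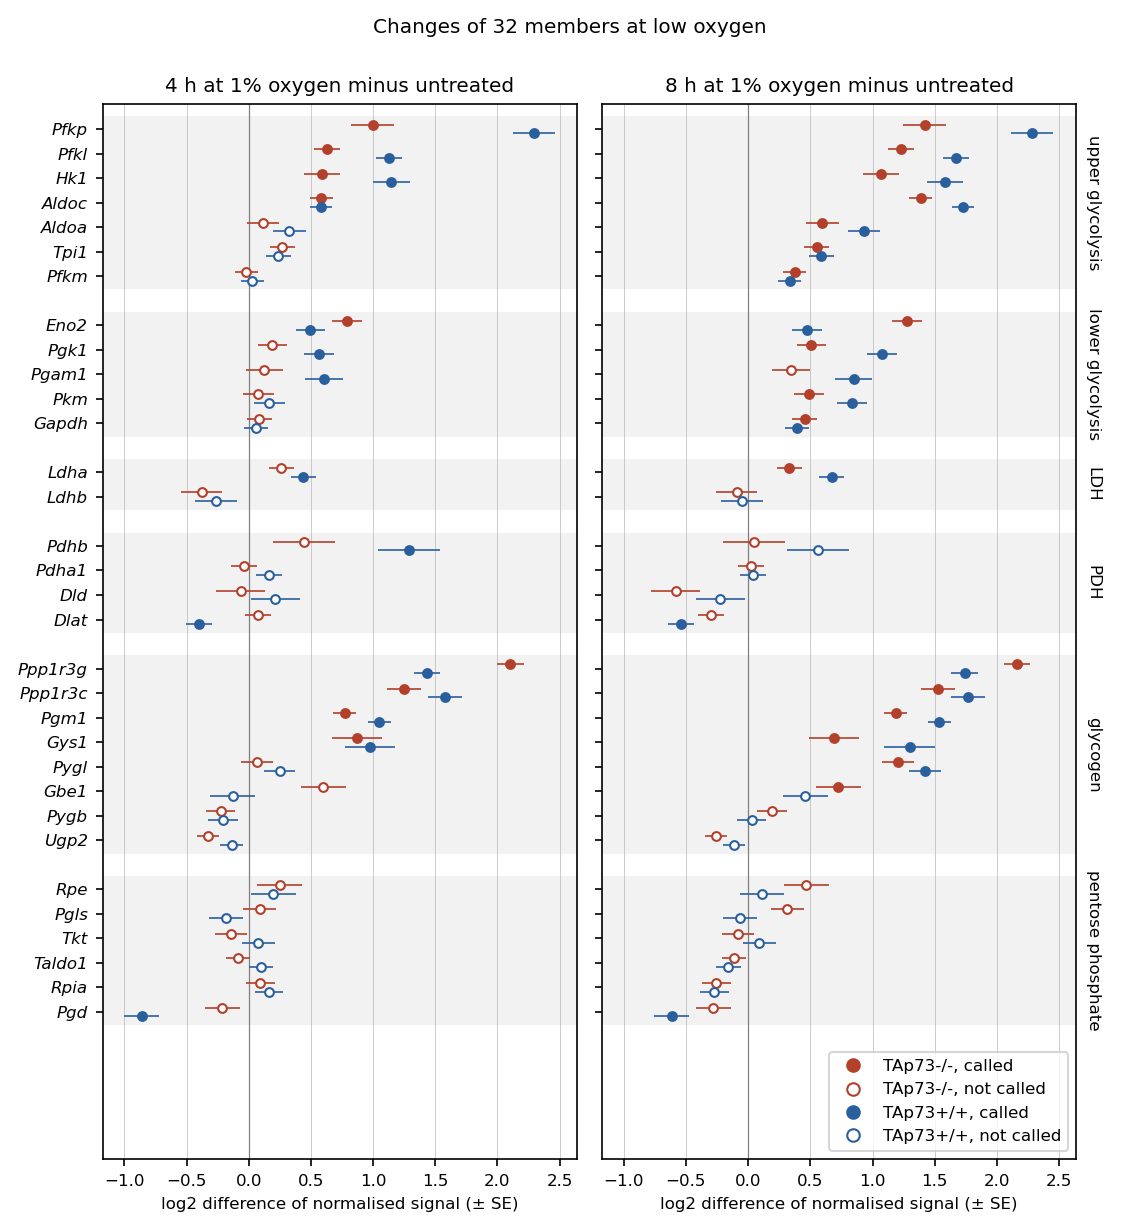
Log2 difference (± SE) of normalised signal between hypoxia and untreated cells for the 32 members, with 4 h on the left, 8 h on the right and rows grouped by role (LDH, lactate dehydrogenase; PDH, pyruvate dehydrogenase). Filled circles were called at an adjusted p below 0.05 (TAp73-/- red and above, TAp73+/+ blue and below), and at 8 h all 7 upper glycolysis genes are filled in both genotypes while the only filled pentose phosphate circles are those of Pgd in TAp73+/+ cells. Values of Pgd, and of Ppp1r3g in TAp73+/+ cells, involve groups not above background and are no exact folds.

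A set of 9 members was called higher in all 4 comparisons, namely Ppp1r3g, Pfkp, Ppp1r3c, Pfkl, Pgm1, Hk1, Aldoc, Gys1 and Eno2. Pgk1 and Ldha were called in 3, missing only at 4 h in TAp73-/- cells. Pfkm, Aldoa, Tpi1, Gapdh, Pkm and Pygl were called at 8 h in both genotypes and at 4 h in neither, by the probes used. Pgam1 was called at both times in TAp73+/+ cells. Gbe1 was called at 8 h in TAp73-/- cells and Pdhb at 4 h in TAp73+/+ cells. The 10 members never called for hypoxia were Ldhb, Pdha1, Dld, Pygb, Ugp2, Pgls, Rpia, Rpe, Tkt and Taldo1.

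Start regions of the members were read from RefSeq promoters on GRCm38.p6, which listed all 37 members in 50 windows of 250 bases before to 50 after a gene start. Both strands were searched for ACGTG and GCGTG, the cores of the hypoxia response element. A CACGTG E-box holds ACGTG on both strands and so counts as 2 matches. ACGTG was present for 14 of the 20 members called higher at least once (70%), for 2 of the 12 measured members never called higher (16.7%) and for 21.8% of 27025 genes. Either core was present for 80%, 75% and 46.7% of the same sets. The median GC content was 60.3% in the windows of the members called higher, 60.7% in those never called higher and 52.7% in all 32851 windows. Genes with several starts have more windows in which a core can lie. A match is a description of these letters and not a bound site.

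Windows are shown for members whose changes carry the results, with matches to either core in capitals, read 5′ to 3′ on the gene's strand. Ldha (chr7:46845554-46845853 on the plus strand) held 5 copies of ACGTG, counting both strands of its 2 E-boxes. Pgk1 lies at chrX:106186850-106187149 on the plus strand, Pgm1 at chr4:99929201-99929500 on the plus strand, Ppp1r3c at chr19:36736555-36736854 on the minus strand and Ppp1r3g at chr13:35967656-35967955 on the plus strand. Pfkp (chr13:6648722-6649021 on the minus strand) held 4 copies of GCGTG and none of ACGTG. Eno2 (chr6:124769624-124769923 on the minus strand) held neither core, although it was called higher in all 4 comparisons.
Ldha: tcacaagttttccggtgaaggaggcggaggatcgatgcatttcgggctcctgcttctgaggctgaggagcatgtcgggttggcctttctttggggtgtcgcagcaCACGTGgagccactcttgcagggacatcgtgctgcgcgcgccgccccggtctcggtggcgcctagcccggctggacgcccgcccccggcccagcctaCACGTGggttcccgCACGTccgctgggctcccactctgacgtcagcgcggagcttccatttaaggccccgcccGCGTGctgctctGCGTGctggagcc
Pgk1: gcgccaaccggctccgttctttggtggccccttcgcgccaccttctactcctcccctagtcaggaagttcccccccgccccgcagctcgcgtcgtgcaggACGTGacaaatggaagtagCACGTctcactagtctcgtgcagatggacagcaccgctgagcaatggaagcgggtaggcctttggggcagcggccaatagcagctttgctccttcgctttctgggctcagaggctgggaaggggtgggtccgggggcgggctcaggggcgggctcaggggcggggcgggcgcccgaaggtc
Pgm1: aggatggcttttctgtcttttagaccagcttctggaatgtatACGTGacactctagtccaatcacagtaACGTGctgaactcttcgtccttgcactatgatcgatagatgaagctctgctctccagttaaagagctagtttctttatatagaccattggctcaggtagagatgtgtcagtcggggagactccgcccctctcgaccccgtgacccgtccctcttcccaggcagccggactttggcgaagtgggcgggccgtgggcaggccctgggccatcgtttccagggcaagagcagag
Ppp1r3c: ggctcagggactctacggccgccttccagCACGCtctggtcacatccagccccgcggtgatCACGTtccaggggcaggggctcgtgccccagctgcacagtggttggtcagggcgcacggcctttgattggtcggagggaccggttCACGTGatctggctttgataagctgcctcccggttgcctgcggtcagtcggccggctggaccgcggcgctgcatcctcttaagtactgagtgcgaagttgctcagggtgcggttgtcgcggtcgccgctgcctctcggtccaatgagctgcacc
Ppp1r3g: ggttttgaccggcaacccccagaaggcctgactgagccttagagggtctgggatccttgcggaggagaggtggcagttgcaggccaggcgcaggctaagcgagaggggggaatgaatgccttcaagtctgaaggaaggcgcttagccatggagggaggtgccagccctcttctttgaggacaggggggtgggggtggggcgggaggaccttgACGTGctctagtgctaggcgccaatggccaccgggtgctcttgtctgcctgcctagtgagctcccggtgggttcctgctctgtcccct
Pfkp: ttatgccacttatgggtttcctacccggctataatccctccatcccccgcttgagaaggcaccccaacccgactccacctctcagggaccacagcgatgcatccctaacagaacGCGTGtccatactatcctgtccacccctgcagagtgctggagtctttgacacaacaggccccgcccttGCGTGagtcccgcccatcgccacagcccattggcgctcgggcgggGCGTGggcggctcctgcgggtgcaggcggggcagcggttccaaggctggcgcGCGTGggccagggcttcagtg
Eno2: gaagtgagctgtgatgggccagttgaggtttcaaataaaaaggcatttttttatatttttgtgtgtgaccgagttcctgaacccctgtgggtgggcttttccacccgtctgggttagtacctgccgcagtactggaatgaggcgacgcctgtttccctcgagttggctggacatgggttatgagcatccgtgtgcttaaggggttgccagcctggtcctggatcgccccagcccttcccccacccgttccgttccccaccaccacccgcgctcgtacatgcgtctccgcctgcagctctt

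All 7 measured genes of upper glycolysis were called higher at 8 h in both genotypes. Pfkp, the platelet-type phosphofructokinase subunit, had a signal of 9.59 and 9.73 without hypoxia, 10.75 and 10.56 after 4 h, and 11.18 and 10.97 after 8 h on the TAp73-/- arrays. On the TAp73+/+ arrays Pfkp gave 7.93 and 8.45 without hypoxia, 10.51 and 10.46 after 4 h, and 10.62 and 10.32 after 8 h. Every hypoxia array of Pfkp lay above the untreated arrays of its genotype, and the untreated TAp73+/+ arrays were the lowest of all. Pfkp rose by 1.00 ± 0.17 at 4 h and 1.42 ± 0.17 at 8 h in TAp73-/- cells (adjusted p = 0.000318 at 8 h). In TAp73+/+ cells Pfkp rose by 2.29 ± 0.17 at 4 h and 2.28 ± 0.17 at 8 h (adjusted p = 7.92e-06 at 8 h). A second probe for Pfkp gave 1.62 and 1.49 in TAp73-/- cells and 2.70 and 1.99 in TAp73+/+ cells at 4 and 8 h.

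Pfkl, the liver-type phosphofructokinase subunit, had a signal of 11.63 and 11.48 without hypoxia, 12.21 and 12.16 after 4 h, and 12.79 and 12.77 after 8 h in TAp73-/- cells. Its signal in TAp73+/+ cells was 11.61 and 11.41 without hypoxia, 12.70 and 12.58 after 4 h, and 13.23 and 13.14 after 8 h. The 3 times of Pfkl did not overlap in either genotype, and both 8 h arrays were highest. Its rises in TAp73-/- cells were 0.63 ± 0.10 at 4 h and 1.23 ± 0.10 at 8 h, against 1.13 ± 0.10 and 1.67 ± 0.10 in TAp73+/+ cells (adjusted p = 0.00594 for the smallest). Hk1, the hexokinase that phosphorylates glucose on entry, gave 7.52 and 7.95 without hypoxia, 8.34 and 8.30 after 4 h, and 8.90 and 8.71 after 8 h in TAp73-/- cells. Hk1 gave 7.49 and 7.21 without hypoxia, 8.49 and 8.51 after 4 h, and 8.89 and 8.98 after 8 h in TAp73+/+ cells. The times of Hk1 did not overlap in either genotype. Hk1 rose by 0.59 ± 0.15 and 1.07 ± 0.15 at 4 and 8 h in TAp73-/- cells and by 1.15 ± 0.15 and 1.58 ± 0.15 in TAp73+/+ cells. The call of Hk1 at 4 h in TAp73-/- cells (adjusted p = 0.0378) was lost without any 1 of 7 arrays.

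Aldoc, an aldolase isozyme best known from brain, had a signal of 8.50 and 8.37 without hypoxia, 9.04 and 8.99 after 4 h, and 9.81 and 9.83 after 8 h in TAp73-/- cells. In TAp73+/+ cells Aldoc had 7.25 and 7.28 without hypoxia, 7.90 and 7.80 after 4 h, and 8.99 and 8.99 after 8 h. All 6 TAp73-/- arrays of Aldoc were above the TAp73+/+ arrays of the same time, and within each genotype the times did not overlap. Aldoc rose by 0.58 ± 0.09 at 4 h and 1.39 ± 0.09 at 8 h in TAp73-/- cells, and by 0.58 ± 0.09 and 1.73 ± 0.09 in TAp73+/+ cells (adjusted p = 0.0041 at 4 h in TAp73-/- cells). Aldoa, the main aldolase, rose at 8 h by 0.60 ± 0.13 in TAp73-/- cells and 0.93 ± 0.13 in TAp73+/+ cells. Tpi1, which interconverts the triose phosphates, rose at 8 h by 0.55 ± 0.10 and 0.59 ± 0.10 in the same order, and Pfkm, the muscle-type phosphofructokinase subunit, by 0.37 ± 0.09 and 0.33 ± 0.09. At 4 h in TAp73-/- cells the calls of Aldoc (0.52) and Pfkl (0.56) were lost without untreated replicate 2 and that of Pfkp (0.93) without untreated replicate 1. At 8 h the call of Pfkm was lost in each genotype without any 1 of 3 arrays, and that of Aldoa in TAp73-/- cells without untreated replicate 1 (0.56) or 8 h replicate 2 (0.54). At 4 h in TAp73+/+ cells the probes used gave 0.24 for Tpi1 and 0.03 for Pfkm. The other kept probes gave 2.04 and 0.27 for Tpi1 and 1.61 and -0.10 for Pfkm.

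**Figure D2:**
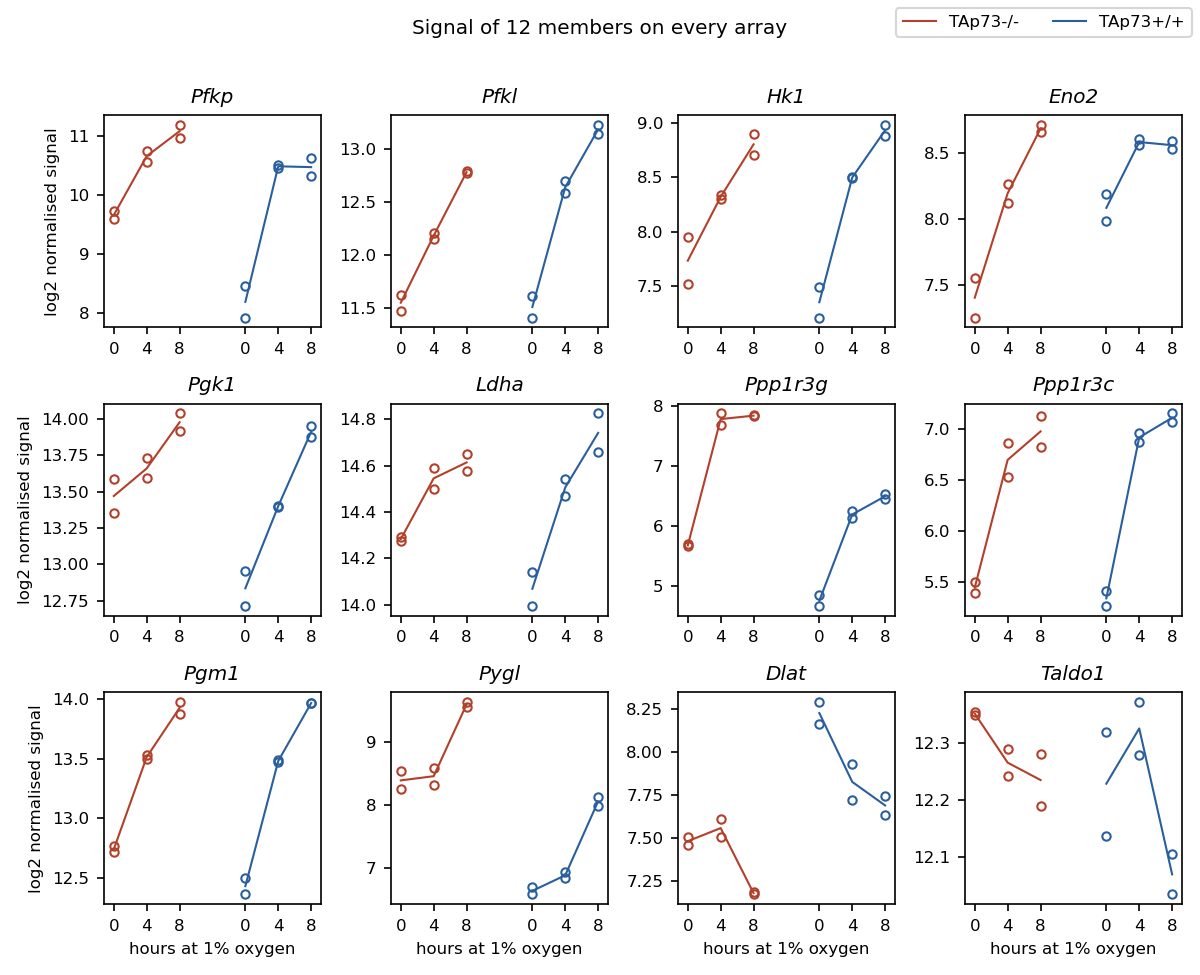
Log2 normalised signal (y axis) against hours at 1% oxygen (x axis) for 12 members, with TAp73-/- in red on the left and TAp73+/+ in blue on the right of each panel. Circles are single arrays and lines join group means; in Pfkl and Pgm1 the 3 times of a genotype do not overlap, while Pygl lies above 8 on all TAp73-/- arrays and above 8 on 1 TAp73+/+ array.

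In lower glycolysis, Eno2, an enolase isozyme best known from neurons, had a signal of 7.56 and 7.26 without hypoxia, 8.27 and 8.12 after 4 h, and 8.71 and 8.65 after 8 h in TAp73-/- cells. In TAp73+/+ cells Eno2 had 8.18 and 7.98 without hypoxia, 8.60 and 8.56 after 4 h, and 8.52 and 8.59 after 8 h. The untreated TAp73-/- arrays were lowest, and at 8 h the TAp73-/- arrays lay above those of TAp73+/+ cells. Eno2 rose by 0.79 ± 0.12 and 1.28 ± 0.12 at 4 and 8 h in TAp73-/- cells and by 0.50 ± 0.12 and 0.47 ± 0.12 in TAp73+/+ cells. Both TAp73+/+ calls of Eno2 were lost without any 1 of 3 arrays.

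Pgk1, the phosphoglycerate kinase that yields ATP, had a signal of 13.59 and 13.35 without hypoxia, 13.59 and 13.73 after 4 h, and 13.92 and 14.04 after 8 h in TAp73-/- cells. Pgk1 gave 12.71 and 12.96 without hypoxia, 13.40 and 13.40 after 4 h, and 13.95 and 13.87 after 8 h in TAp73+/+ cells. Both untreated TAp73+/+ arrays were below all others, and 1 of the 4 h TAp73-/- arrays lay level with an untreated one. Pgk1 changed by 0.19 ± 0.12 at 4 h, which was not called (adjusted p = 0.365), and rose by 0.51 ± 0.12 at 8 h in TAp73-/- cells. In TAp73+/+ cells Pgk1 rose by 0.57 ± 0.12 at 4 h and 1.08 ± 0.12 at 8 h (adjusted p = 0.00015 at 8 h). The 8 h call in TAp73-/- cells was lost without untreated replicate 2 (0.39) or 8 h replicate 2 (0.45). A second Pgk1 probe, detected on 7 arrays, gave -0.16 at 8 h in TAp73-/- cells and 0.19 in TAp73+/+ cells.

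Pgam1, a phosphoglycerate mutase, had 10.62 and 10.78 without hypoxia, 10.96 and 10.69 after 4 h, and 11.00 and 11.10 after 8 h in TAp73-/- cells. Its TAp73+/+ values were 10.41 and 10.56 without hypoxia, 11.08 and 11.09 after 4 h, and 11.56 and 11.10 after 8 h. The untreated and 4 h arrays of Pgam1 overlapped in TAp73-/- cells and did not in TAp73+/+ cells. Its change in TAp73-/- cells was 0.13 ± 0.15 at 4 h and 0.35 ± 0.15 at 8 h, neither called, whereas it rose by 0.60 ± 0.15 and 0.85 ± 0.15 in TAp73+/+ cells, a 4 h call lost without any 1 of 3 arrays. Whether Pgam1 responded differently in the genotypes was tested by limma and not called (adjusted p = 0.292 at 4 h and adjusted p = 0.311 at 8 h). A second Pgam1 probe, detected on 12 arrays, gave 0.45 and 0.20 in TAp73-/- cells at 4 and 8 h. It gave 0.27 and 0.52 in TAp73+/+ cells, and none of these changes was called. Averaged over times this second probe was higher in TAp73-/- cells by 0.73, against -0.11 for the probe used. Gapdh, often used as a reference gene, rose at 8 h by 0.45 ± 0.10 in TAp73-/- cells and 0.39 ± 0.10 in TAp73+/+ cells, and Pkm, pyruvate kinase, by 0.49 ± 0.12 and 0.83 ± 0.12. The call of Pkm in TAp73-/- cells was lost without any 1 of 3 arrays, and that of Gapdh without any 1 of 2 arrays in TAp73-/- cells and of 3 in TAp73+/+ cells. A probe of Eno1b, whose synonyms include Eno1 and whose sequence nearly matches it, is of uncertain origin and is not counted, with 0.36 ± 0.16 in TAp73-/- cells and 0.61 ± 0.16 in TAp73+/+ cells at 8 h.

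Of both lactate dehydrogenase genes, Ldha moved and Ldhb was not called. Ldha, whose product favours lactate formation, had a signal of 14.27 and 14.29 without hypoxia, 14.59 and 14.50 after 4 h, and 14.58 and 14.65 after 8 h in TAp73-/- cells. In TAp73+/+ cells Ldha had 13.99 and 14.14 without hypoxia, 14.54 and 14.47 after 4 h, and 14.66 and 14.83 after 8 h. All hypoxia arrays were above the untreated arrays of their genotype, over a narrow span near the top of the scale. Ldha rose by 0.33 ± 0.10 at 8 h in TAp73-/- cells (adjusted p = 0.0393), a call lost without any 1 of 8 arrays, and by 0.44 ± 0.10 and 0.67 ± 0.10 at 4 and 8 h in TAp73+/+ cells. The 4 h call in TAp73+/+ cells was lost without untreated replicate 1 (0.36) or 4 h replicate 1 (0.40). Ldhb had 5.62 and 5.44 without hypoxia, 5.31 and 4.99 after 4 h, and 5.34 and 5.54 after 8 h in TAp73-/- cells. It had 5.83 and 5.62 without hypoxia, 5.23 and 5.70 after 4 h, and 5.60 and 5.75 after 8 h in TAp73+/+ cells. The hypoxia arrays of Ldhb overlapped the untreated ones except at 4 h in TAp73-/- cells, and its changes ran between -0.38 and -0.05.

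In the pyruvate dehydrogenase complex, Dlat, the acetyltransferase subunit, had a signal of 7.50 and 7.46 without hypoxia, 7.51 and 7.61 after 4 h, and 7.17 and 7.19 after 8 h in TAp73-/- cells. Dlat had 8.16 and 8.29 without hypoxia, 7.72 and 7.93 after 4 h, and 7.63 and 7.74 after 8 h in TAp73+/+ cells. The untreated TAp73+/+ arrays were highest and the 8 h TAp73-/- arrays lowest. Dlat fell by 0.40 ± 0.10 and 0.54 ± 0.10 at 4 and 8 h in TAp73+/+ cells (adjusted p = 0.00479 at 8 h), while in TAp73-/- cells it changed by 0.08 ± 0.10 and -0.30 ± 0.10, not called. The fall of Dlat at 4 h was not called without untreated replicate 2 (-0.33) or 4 h replicate 1 (-0.29). Dld, the dihydrolipoamide dehydrogenase shared with other complexes, had 9.78 and 9.54 without hypoxia, 9.23 and 9.97 after 4 h, and 9.10 and 9.06 after 8 h in TAp73-/- cells. It had 8.72 and 8.81 without hypoxia, 8.83 and 9.12 after 4 h, and 8.50 and 8.58 after 8 h in TAp73+/+ cells. The 4 h TAp73-/- arrays of Dld spread widely, and no change with hypoxia was called, the largest being -0.58 ± 0.20 at 8 h in TAp73-/- cells (adjusted p = 0.0588).

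Pdhb, which encodes the beta subunit of the first enzyme of the complex, gave different answers by probe. The probe used had 9.75 and 10.05 without hypoxia, 10.48 and 10.20 after 4 h, and 10.06 and 9.84 after 8 h in TAp73-/- cells. It had 8.67 and 9.46 without hypoxia, 10.24 and 10.46 after 4 h, and 9.89 and 9.35 after 8 h in TAp73+/+ cells. The TAp73+/+ replicates lay far apart untreated and at 8 h, and 1 untreated TAp73+/+ array was the lowest of all. It rose by 1.29 ± 0.25 at 4 h in TAp73+/+ cells (adjusted p = 0.00408), but the other probes of Pdhb gave -0.67 and 0.18 there, and with the probe score as a covariate the change was -0.77 and not called. Pdha1, the catalytic alpha subunit, changed by -0.04 to 0.16 and was not called. No pyruvate dehydrogenase gene was called in TAp73-/- cells by limma, where at an unadjusted p below 0.05 there was none at 4 h and 2 at 8 h.

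Of the 8 measured glycogen genes, Ppp1r3g, Ppp1r3c, Pgm1 and Gys1 were called higher in all 4 comparisons. Pygl was called at 8 h in both genotypes and Gbe1 at 8 h in TAp73-/- cells, while Pygb and Ugp2 were not called. Ppp1r3g, a subunit that brings the phosphatase to glycogen, had a signal of 5.69 and 5.66 without hypoxia, 7.87 and 7.68 after 4 h, and 7.83 and 7.84 after 8 h in TAp73-/- cells. Ppp1r3g had 4.84 and 4.67 without hypoxia, 6.13 and 6.25 after 4 h, and 6.45 and 6.53 after 8 h in TAp73+/+ cells, where neither untreated array was above background. Each TAp73-/- array of Ppp1r3g was above the TAp73+/+ arrays of the same time, and 4 h and 8 h arrays lay close together in TAp73-/- cells. Ppp1r3g rose by 2.10 ± 0.11 and 2.16 ± 0.11 at 4 and 8 h in TAp73-/- cells (adjusted p = 7.4e-07 at 8 h). It was at least 2.18-fold higher at 4 h and at least 2.69-fold higher at 8 h in TAp73+/+ cells, measured against the lowest detected signal of each untreated array. A second Ppp1r3g probe, detected on 9 arrays, gave 0.36 and 0.53 in TAp73-/- cells and 0.04 and -0.23 in TAp73+/+ cells at 4 and 8 h.

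Ppp1r3c, another such subunit, had a signal of 5.39 and 5.50 without hypoxia, 6.53 and 6.86 after 4 h, and 7.13 and 6.82 after 8 h in TAp73-/- cells. Ppp1r3c had 5.26 and 5.41 without hypoxia, 6.87 and 6.95 after 4 h, and 7.06 and 7.15 after 8 h in TAp73+/+ cells. Untreated arrays of both genotypes overlapped, and so did the 8 h arrays. Ppp1r3c rose by 1.25 ± 0.14 and 1.53 ± 0.14 in TAp73-/- cells and by 1.57 ± 0.14 and 1.77 ± 0.14 in TAp73+/+ cells at 4 and 8 h (adjusted p = 0.000437 for the smallest). Pgm1 is the phosphoglucomutase between glycolysis and glycogen. Older mouse annotation exchanged the symbols Pgm1 and Pgm2, and Pgm1 here is the gene on chromosome 4 of GRCm38.p6, with the unkept Pgm2 probe assigned to the gene on chromosome 5. Pgm1 had 12.76 and 12.71 without hypoxia, 13.50 and 13.53 after 4 h, and 13.87 and 13.98 after 8 h in TAp73-/- cells. It had 12.36 and 12.50 without hypoxia, 13.49 and 13.47 after 4 h, and 13.97 and 13.97 after 8 h in TAp73+/+ cells. Pgm1 separated all 3 times in both genotypes, and the replicates lay close together. It rose by 0.77 ± 0.09 and 1.19 ± 0.09 in TAp73-/- cells and by 1.05 ± 0.09 and 1.54 ± 0.09 in TAp73+/+ cells at 4 and 8 h (adjusted p = 0.000723 for the smallest).

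Pygl, the liver-type glycogen phosphorylase that releases glucose units, had a signal of 8.53 and 8.24 without hypoxia, 8.32 and 8.58 after 4 h, and 9.55 and 9.63 after 8 h in TAp73-/- cells. Pygl had 6.57 and 6.69 without hypoxia, 6.93 and 6.83 after 4 h, and 8.13 and 7.98 after 8 h in TAp73+/+ cells. The 4 h arrays lay at or near the untreated level and the 8 h arrays far above it in both genotypes. Pygl rose at 8 h by 1.21 ± 0.13 in TAp73-/- cells and 1.42 ± 0.13 in TAp73+/+ cells (limma, adjusted p = 0.000139 for the smaller). At 4 h it changed by 0.07 ± 0.13 and 0.25 ± 0.13, not called. A second Pygl probe gave 0.19 and 0.46 at 4 h in the same order. With the mean over probes, Pygl was called higher at 4 h in TAp73+/+ cells, at 0.36 (limma, adjusted p = 0.0359). Gys1, glycogen synthase, rose by 0.87 ± 0.20 and 0.69 ± 0.20 in TAp73-/- cells and by 0.98 ± 0.20 and 1.30 ± 0.20 in TAp73+/+ cells at 4 and 8 h, where 1 of the 2 untreated arrays was above background. Both TAp73-/- calls of Gys1 were lost without any 1 of 3 arrays, the 8 h value being 0.28 without 8 h replicate 1. Gbe1, the branching enzyme, had 6.34 and 5.76 without hypoxia, 6.48 and 6.82 after 4 h, and 6.64 and 6.91 after 8 h in TAp73-/- cells. Gbe1 had 6.85 and 6.87 without hypoxia, 6.82 and 6.65 after 4 h, and 7.37 and 7.27 after 8 h in TAp73+/+ cells. The untreated TAp73-/- arrays were the lowest of Gbe1. It rose by 0.72 ± 0.18 at 8 h in those cells, a call lost without untreated replicate 2 or 8 h replicate 2. In TAp73+/+ cells Gbe1 changed by 0.46 at 8 h and was not called (limma, adjusted p = 0.0875). That change was called with an offset of 50, on the deposited values and with 75th percentile scaling. Pygb, the brain-type phosphorylase, and Ugp2, which makes UDP-glucose, were not called, with changes from -0.33 to 0.19.

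In the pentose phosphate pathway no gene was called higher by the probes used, and Pgd was the only one called lower. By limma the unadjusted p was below 0.05 for none of its 6 genes at 4 h and 3 at 8 h in TAp73-/- cells, and for 1 and 2 in TAp73+/+ cells. Pgd, 6-phosphogluconate dehydrogenase, had a signal of 5.00 and 4.68 without hypoxia, 4.67 and 4.59 after 4 h, and 4.53 and 4.59 after 8 h in TAp73-/- cells. Pgd had 5.66 and 5.60 without hypoxia, 4.97 and 4.57 after 4 h, and 4.98 and 5.05 after 8 h in TAp73+/+ cells. It was detected on 3 arrays only, both untreated TAp73+/+ arrays and 1 of the 8 h TAp73+/+ arrays. Pgd thus passed the filter only through the group where it was highest, and its calls as lower are not independent of that filter. Pgd was at least 1.48-fold lower at 4 h in TAp73+/+ cells (adjusted p = 0.00166) and fell by 0.61 ± 0.14 at 8 h (adjusted p = 0.0105), a call lost without 8 h replicate 1 (-0.58). In TAp73-/- cells it was not above background at any time, so no change is given.

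Rpe, ribulose phosphate epimerase, had 6.19 and 6.01 without hypoxia, 6.19 and 6.52 after 4 h, and 6.33 and 6.80 after 8 h in TAp73-/- cells. Rpe had 6.72 and 6.44 without hypoxia, 6.94 and 6.60 after 4 h, and 6.70 and 6.68 after 8 h in TAp73+/+ cells. The replicates of Rpe differed by as much as the groups, and its changes were 0.25 ± 0.18 and 0.47 ± 0.18 in TAp73-/- cells and 0.20 ± 0.18 and 0.11 ± 0.18 in TAp73+/+ cells. Rpia, ribose phosphate isomerase, had 9.34 and 9.27 without hypoxia, 9.53 and 9.27 after 4 h, and 9.12 and 8.98 after 8 h in TAp73-/- cells. Rpia had 9.47 and 9.55 without hypoxia, 9.72 and 9.62 after 4 h, and 9.33 and 9.15 after 8 h in TAp73+/+ cells. The 8 h arrays of Rpia were lowest in each genotype, with changes of -0.26 ± 0.12 and -0.27 ± 0.12 that were not called. Pgls, the lactonase, and transketolase (Tkt) and transaldolase (Taldo1), which rejoin the sugars to glycolysis, changed by -0.19 to 0.32 in all 4 comparisons. In TAp73+/+ cells 1 other Pgls probe gave -0.90 and -0.57 at 4 and 8 h, and another 0.04 and 0.10. The other Tkt probes gave -0.07 and -0.20 at 4 h and -0.56 and -0.36 at 8 h there. With the mean over probes, Pgls was called lower at 4 h in TAp73+/+ cells, at -0.35 (limma, adjusted p = 0.0295).

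The step from 4 h to 8 h, a comparison chosen after seeing the data, showed which members still rose after 4 h. In TAp73-/- cells 9 members were higher at 8 h than at 4 h and 1, Dlat, was lower, where all genes gave 6.75% higher and 3.84% lower. In TAp73+/+ cells 9 were higher and 1, Rpia, lower, where all genes gave 8.62% higher and 5.22% lower. Pfkl, Aldoa, Aldoc, Gapdh, Pygl and Pgm1 were called higher in both. Other probes of the called members had the same sign for 4 of 5 in TAp73-/- cells and 4 of 7 in TAp73+/+ cells. The exceptions were a Pfkm probe at -0.17 in TAp73-/- cells, and probes of Pfkl at -0.07, Tpi1 at -0.83 and Pgk1 at -0.74 in TAp73+/+ cells. A second Pygl probe gave 0.81 in TAp73-/- cells and 0.31 in TAp73+/+ cells. Pygl rose by 1.14 ± 0.13 in TAp73-/- cells and 1.18 ± 0.13 in TAp73+/+ cells over this step, and Aldoc by 0.80 ± 0.09 and 1.14 ± 0.09. Ppp1r3g changed by 0.06 ± 0.11 in TAp73-/- cells and 0.30 ± 0.11 in TAp73+/+ cells, and Pfkp by 0.42 ± 0.17 and -0.01 ± 0.17, none of which was called. With the probe score as a covariate neither genotype had a member called higher over this step, although Pygl was then at 1.18 in TAp73-/- cells (adjusted p = 0.0562) and 1.25 in TAp73+/+ cells (adjusted p = 0.185), and Aldoc at 0.78 and 1.11. The count in TAp73-/- cells was 2 without 4 h replicate 2, 3 without 8 h replicate 1 and 2 without 8 h replicate 2. The count in TAp73+/+ cells was 3 without 4 h replicate 1, 2 without 4 h replicate 2, 5 without 8 h replicate 1 and 2 without 8 h replicate 2.

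With the probe score as a covariate most calls at 8 h held and most at 4 h were lost. In TAp73-/- cells 1 member, Ppp1r3g, was called higher at 4 h and 19 at 8 h, where all genes gave 0.524% and 11.1%. The member added at 8 h was Rpe of the pentose phosphate pathway, at 0.55 with the covariate. In TAp73+/+ cells none was called at 4 h and 13 at 8 h, where all genes gave 0.11% and 4.1%. The median standard error at 4 h in TAp73+/+ cells was 0.372 with the covariate and 0.127 without it. Of the members called without the covariate, the sign was the same with it for 9 of 9 at 4 h and 18 of 18 at 8 h in TAp73-/- cells, and for 13 of 15 and 20 of 20 in TAp73+/+ cells. The exceptions at 4 h in TAp73+/+ cells were Gys1 at -0.31 and Pdhb at -0.77, as the plot against the covariate shows.

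**Figure D3:**
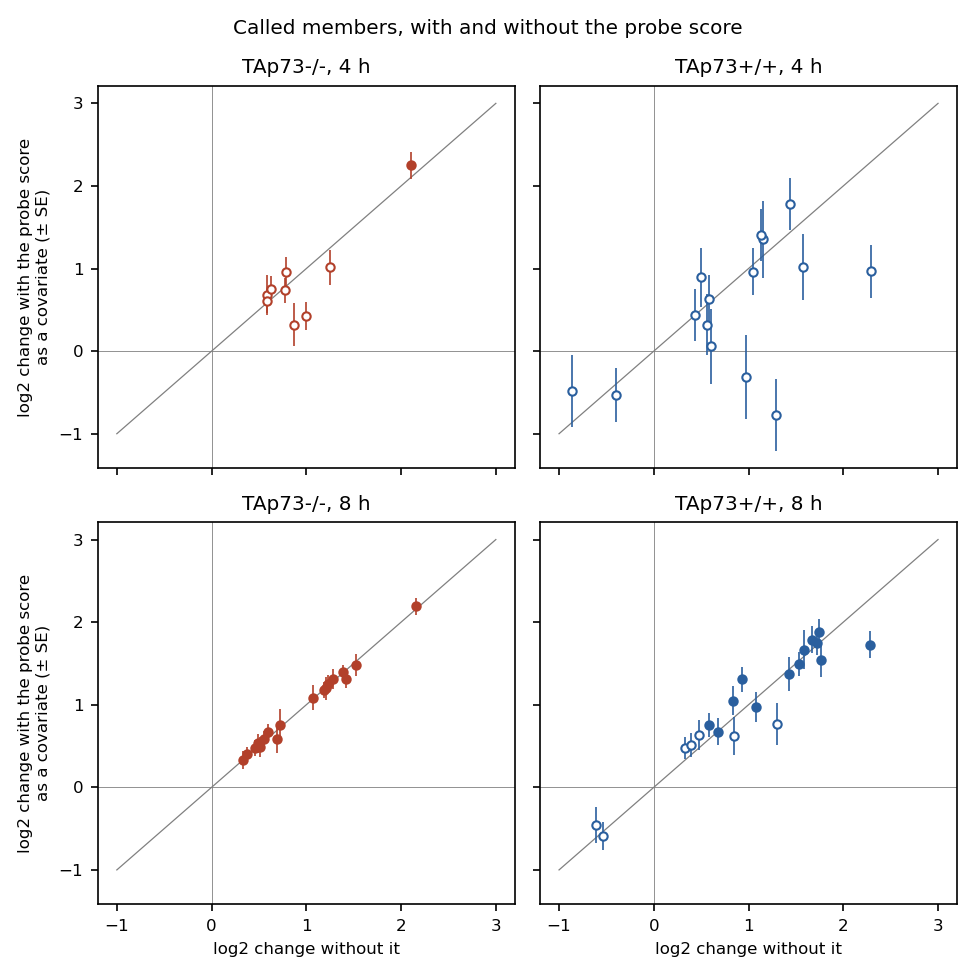
Log2 change of the called members with the probe score as a covariate (± SE, y axis) against the change without it (x axis), with 4 h above and 8 h below, TAp73-/- on the left and TAp73+/+ on the right. Filled circles were also called with the covariate and the grey diagonal marks equal values; at 8 h the TAp73-/- points lie along it and some TAp73+/+ points off it (Pfkp 1.73 with and 2.28 without, Gys1 0.77 and 1.30, Aldoa 1.31 and 0.93), while at 4 h in TAp73+/+ cells the error bars are long, no point is filled and 2 points change sign.

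Whether a member responded differently in the genotypes was tested directly. No member was called by limma for a difference in response at 4 h or at 8 h, although some alternative settings called 1 or 2 at each time, and 0.304% and 0.478% of all genes were called. At an unadjusted p below 0.05 there were 10 members at 4 h and 10 at 8 h. The smallest adjusted p at 4 h was that of Pfkp, with a difference of -1.30 ± 0.24 (TAp73-/- minus TAp73+/+ response; adjusted p = 0.0539), and at 8 h that of Eno2, with 0.80 ± 0.17 (adjusted p = 0.0689). The Pfkp response was the smaller one in TAp73-/- cells, whose untreated arrays were already higher, and the Eno2 response was the larger one, from lower untreated arrays. At 8 h, 20 of the 32 members had a larger change in TAp73+/+ cells, and the median difference was -0.16 beside 0.03 over all genes.

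Between genotypes, members differed in both directions, and averaged over times the counts lay near those of all genes. Averaged over the 3 times, 9 members were higher and 8 lower in TAp73-/- cells, where 28.3% of all genes were higher and 31.4% lower. Untreated, 10 members were higher and 4 lower, where all genes gave 18% and 20.4%. At 4 h, 5 were higher and 2 lower, where all genes gave 18.5% and 18%. At 8 h, 5 were higher and 4 lower, where all genes gave 18.2% and 18.2%. Pgd is among the lower members untreated, at 8 h and averaged over times. It passed the filter only through the untreated TAp73+/+ arrays, so these calls of Pgd are not independent of that filter. At 4 h the count of lower members was 0 without TAp73+/+ 4 h replicate 1 and 1 without TAp73+/+ or TAp73-/- 4 h replicate 2. It was 1 at 8 h without 8 h replicate 1 of either genotype and 2 without TAp73-/- 8 h replicate 2, and the higher count at 8 h was 3 without TAp73+/+ replicate 2 or TAp73-/- replicate 1.

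Averaged over times, the largest difference among members was that of Pygl, which was higher in TAp73-/- cells by 1.75 ± 0.13 untreated, 1.57 ± 0.13 at 4 h and 1.54 ± 0.13 at 8 h (adjusted p = 1.73e-08 averaged over times). Aldoc was higher by 1.17 ± 0.09, 1.17 ± 0.09 and 0.83 ± 0.09 at the same times. Ppp1r3g was at least 1.52-fold higher untreated and higher by 1.59 ± 0.11 at 4 h and 1.34 ± 0.11 at 8 h. Its second probe gave -0.34 untreated, -0.01 at 4 h and 0.42 at 8 h, and with the mean over probes the untreated difference was 0.29 and not called (adjusted p = 0.0955). Averaged over times, these 3 were the members called higher with the probe score as a covariate, where 2.95% of all genes were called higher, and Pygl was at 1.53 with it and 1.62 without it. With the covariate Pkm was called at 4 h, at 0.93 (adjusted p = 0.0144), and not on average (adjusted p = 0.0549). Pfkp was higher by 1.47 ± 0.17 untreated and 0.61 ± 0.17 at 8 h but differed by 0.17 ± 0.17 at 4 h, and its average of 0.75 ± 0.10 was -0.24 with the covariate. Pkm was higher by 0.63 ± 0.07 on average, Dld by 0.68 ± 0.11, Pdhb by 0.38 ± 0.14, Gys1 by 0.38 ± 0.12 and Pgk1 by 0.32 ± 0.07. With the covariate Pdhb was -1.14 and Gys1 -0.58, neither called. The call of Pdhb was lost without any 1 of 6 arrays.

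Of the members lower in TAp73-/- cells, Dlat differed by -0.74 ± 0.10 untreated, -0.27 ± 0.10 at 4 h and -0.51 ± 0.10 at 8 h, with an average of -0.51 ± 0.06 (adjusted p = 3.69e-05). Gbe1 differed by -0.81 ± 0.18 untreated and -0.55 ± 0.18 at 8 h, and by -0.08 ± 0.18 at 4 h, where it was not called. Pgd was at least 1.54-fold lower untreated, where only the TAp73+/+ arrays, through which it passed the filter, were above background. Rpe averaged -0.34 ± 0.10, Eno2 -0.31 ± 0.07, Pfkl -0.27 ± 0.06, Ldhb -0.25 ± 0.10 and Rpia -0.22 ± 0.07. With the covariate Rpe was 0.43 and Ldhb 0.22, neither called, and the call of Ldhb was lost without any 1 of 8 arrays. Other probes of the called members had the same sign for 7 of 9, and the exceptions were a Pdhb probe at -0.68 and a Pkm probe at -0.06, while the second Ppp1r3g probe was at 0.02. The summed fibroblast and epithelial markers were also higher in untreated TAp73-/- cells than in untreated TAp73+/+ cells, and their part in these differences was not tested.

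**Figure D4:**
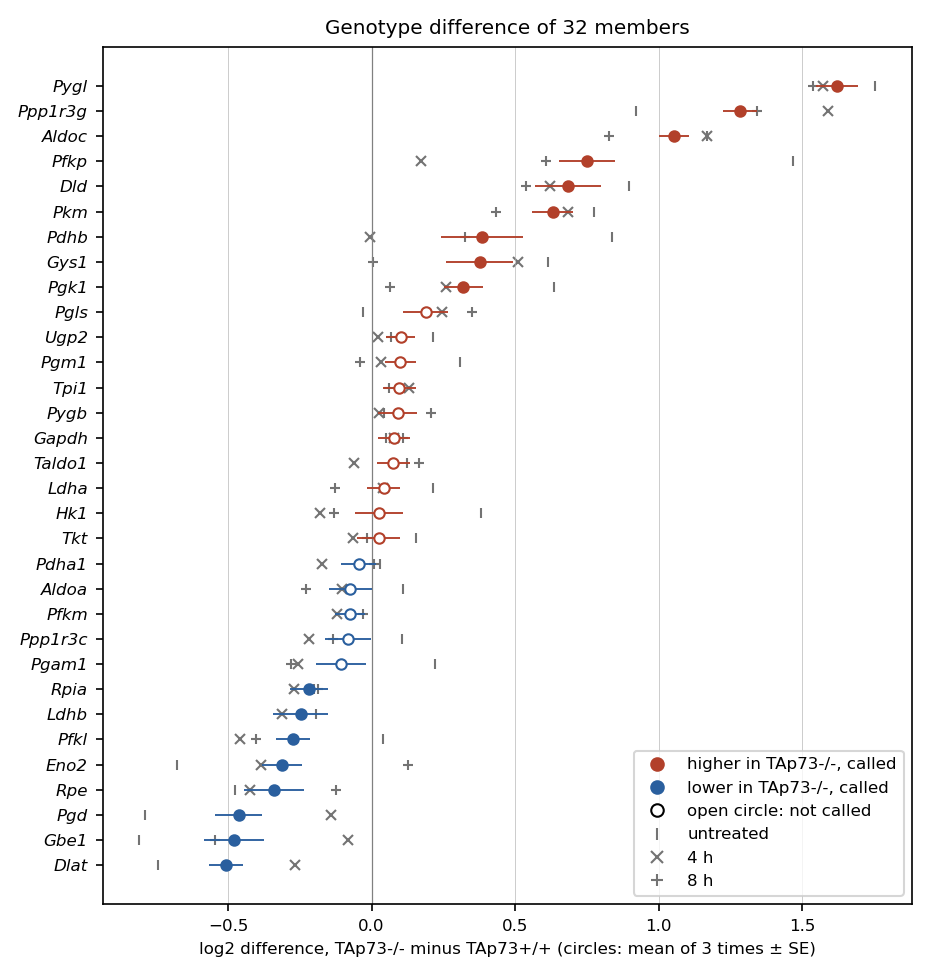
Log2 difference between TAp73-/- and TAp73+/+ cells for the 32 members (x axis), with circles for the average of the 3 times (± SE) and grey marks for single times. Filled circles were called at an adjusted p below 0.05; Pygl, Ppp1r3g and Aldoc lie above 1 and Dlat is the lowest member. Averages of Ppp1r3g and Pgd include groups not above background.

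Of 63 listed pathway genes 33 were tested, and 2 were higher at 4 h and 6 higher and 3 lower at 8 h in TAp73-/- cells, against 5 higher and 4 lower and 10 higher and 5 lower in TAp73+/+ cells. Of all genes in TAp73-/- cells, 3.13% were higher and 3.84% lower at 4 h, and 10.6% were higher and 10.2% lower at 8 h. Of all genes in TAp73+/+ cells, 12% were higher and 16% lower at 4 h, and 11.6% were higher and 12.3% lower at 8 h. Ppp1r3b, another glycogen-targeting subunit, rose by 1.70 ± 0.11 at 8 h in TAp73-/- cells and 1.59 ± 0.11 in TAp73+/+ cells (adjusted p = 5.17e-06 for TAp73-/- cells). Stbd1, a glycogen-binding protein, rose by 0.65 ± 0.11 and 0.64 ± 0.11, and Ppp1r3d by 0.57 ± 0.12 and 0.62 ± 0.12. Epm2a, laforin, was called higher at 8 h in both genotypes but was undetected in both untreated groups. It passed the filter only through hypoxia groups, where it was higher. Its calls, which are among the higher genes at 8 h, are thus not independent of that filter. Gsk3a, a kinase that inhibits glycogen synthase, rose by 0.75 ± 0.16 in TAp73+/+ cells. Ppp1r3a, a targeting subunit known from muscle, was called lower in TAp73+/+ cells but was detected on the 2 untreated TAp73+/+ arrays only. It passed the filter only through that group, where it was highest. Its call, which is among the lower genes at 8 h in TAp73+/+ cells, is thus not independent of that filter. Ppp1r3f, Pgm3 and Pdp2 fell by 0.60 ± 0.12, 0.55 ± 0.15 and 0.31 ± 0.10 in TAp73-/- cells, and Rbks, Phka2 and Pdp2 by 0.63 ± 0.17, 0.37 ± 0.11 and 0.37 ± 0.10 in TAp73+/+ cells.

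Of 17 genes of glucose uptake, lactate export and pyruvate diversion, 13 were tested, and 6 were higher and 1 lower at 8 h in TAp73-/- cells, against 5 higher and 1 lower in TAp73+/+ cells. All genes gave 10.6% higher and 10.2% lower in TAp73-/- cells, against 11.6% and 12.3% in TAp73+/+ cells. Slc2a3, a glucose transporter, rose at 8 h by 1.90 ± 0.12 in TAp73-/- cells and 2.16 ± 0.12 in TAp73+/+ cells, and Slc2a1, another, by 1.32 ± 0.14 and 1.65 ± 0.14. Pdk1, the kinase that switches off pyruvate dehydrogenase, rose by 1.56 ± 0.11 and 2.33 ± 0.11, and Slc16a3, a lactate exporter, by 1.36 ± 0.15 and 2.80 ± 0.15. Slc16a3 was detected on 11 of the 12 arrays, and its untreated TAp73+/+ signals of 5.40 and 4.95 lay near background. Txnip, which restrains glucose uptake, fell by 1.34 ± 0.13 and 0.57 ± 0.13. Of 17 tested genes of the tricarboxylic acid cycle none was higher in the 4 comparisons of hypoxia with untreated cells. At an unadjusted p below 0.05 limma gave 0 and 1 higher at 4 and 8 h in TAp73-/- cells and 2 and 0 in TAp73+/+ cells. Lower at 8 h were Aco1 at -0.42 ± 0.11 and Idh3a at -0.36 ± 0.09 in TAp73-/- cells, and these with Ogdh in TAp73+/+ cells at -0.43 ± 0.11, -0.45 ± 0.09 and -0.43 ± 0.14.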

How the data were processed

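The deposited non-normalised table lists for each probe and array a bead intensity (signal) with its detection p-value, per the file headers. The deposited series matrix gives 1 processed intensity signal per probe, with the same distribution on every array, and the submitters' processing notes name Partek, with no steps given. It served as an alternative, on log2 of the deposited values. From the raw signals, neqc of limma 3.58.1 in R 4.3.3 removed background with normexp, added an offset of 16 and normalised quantiles before log2. Kept were probes with detection p below 0.05 on both arrays of a group. Names were updated by Entrez identifier to GRCm38.p6. The brightest probe stood for a gene, so 15 members with more than 1 kept probe rest on that choice. All 12 arrays entered 1 limma model with a mean per group and moderated standard errors, checked on simulated data, and p-values were adjusted by Benjamini-Hochberg over 10873 genes within each of 10 contrasts, with 2 more added later. The members and lists were chosen with earlier results of these data known. Every measured member is named; values on each array are given for up to 3 members per role with the largest mean hypoxia change and up to 4 each way between genotypes. Alternatives covered background, offset, scaling, filter, probe choice, the probe score, a replicate block and leaving out each array. The number of arrays limits the precision.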

Additional observations from a re-analysis of the deposited data

Results flagged for a closer look

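No member was called for a difference between genotypes in its response to hypoxia, but 2 genes of the uptake and export list were, by the test of the difference itself. Txnip had log2 signals of 9.95 and 10.05 without hypoxia, 7.01 and 7.00 after 4 h, and 8.63 and 8.69 after 8 h in TAp73-/- cells. It had 8.65 and 8.27 without hypoxia, 6.75 and 6.64 after 4 h, and 7.98 and 7.79 after 8 h in TAp73+/+ cells. Its fall at 4 h was larger in TAp73-/- cells, with a difference of -1.23 ± 0.18 (limma, adjusted p = 0.0267), which was -1.51 once the probe score was a covariate (adjusted p = 0.331) and -1.18 without untreated TAp73-/- replicate 2 (adjusted p = 0.14). Slc16a3 had 6.26 and 6.10 without hypoxia, 7.13 and 6.99 after 4 h, and 7.59 and 7.48 after 8 h in TAp73-/- cells. It had 5.40 and 4.95 without hypoxia, 6.92 and 6.98 after 4 h, and 7.83 and 8.11 after 8 h in TAp73+/+ cells. Its rise at 8 h was smaller in TAp73-/- cells, with a difference of -1.44 ± 0.21 (adjusted p = 0.021), which was -0.797 on the deposited processed values; for this Slc16a3 difference the adjusted p reached 0.0922 without TAp73+/+ 8 h replicate 2, at -1.30.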

How the results depend on the processing

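Of 129 calls of members, 128 held without background correction, 126 with an offset of 50, 127 on the deposited processed values, 122 with 75th percentile scaling, 119 without the filter, 115 with the mean over probes, 122 with the replicate block while 42 did so when the probe score was a covariate; that covariate and the mean over probes turned signs. Same-numbered arrays deviated from their group means with correlations of -0.25 to 0.125, so the numbers were not taken as pairs. The replicate block gave 8 and 17 higher members at 4 and 8 h in TAp73-/- cells and 13 and 18 in TAp73+/+ cells. The 75th percentile scaling moved the share of higher calls among all called genes at 8 h in TAp73+/+ cells to 62.4%, against 48.6% otherwise, and for 8 h against 4 h in TAp73-/- cells to 74.5%, against 63.7%.

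For the probe score used as a covariate, alone and with the replicate block, the count of higher members was 1 and 1 at 4 h in TAp73-/- cells, 0 and 0 at 4 h in TAp73+/+ cells, 0 and 0 between untreated genotypes, 3 and 2 between genotypes at 8 h, 3 and 3 averaged over times and 0 and 0 for 8 h against 4 h in either genotype. The count of lower members was 0 in TAp73+/+ cells at 4 and 8 h, 0 between genotypes untreated, at 8 h and averaged, and 1 at 4 h. Signs turned, alone and with the block, for Pdhb (-0.77 and -0.76) and Gys1 (-0.31 and -0.33) at 4 h in TAp73+/+ cells, for Pdhb (-1.31 and -1.31) and Gys1 (-0.73 and -0.75) between untreated genotypes, and for Pfkp at 8 h (-0.34 and -0.34). They also turned for the averages of Pfkp (-0.24 and -0.24), Ldhb (0.22 and 0.23), Pdhb (-1.14 and -1.14), Gys1 (-0.58 and -0.59) and Rpe (0.43 and 0.43), and at 4 h in TAp73+/+ cells for Aco1 (0.0208 and 0.0184) and Ogdh (0.0332 and 0.0256). With the mean over probes, 8 h against 4 h in TAp73+/+ cells turned to -0.064 for Tpi1 and -0.11 for Pgk1. The cause was not tested.

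Lower members at 4 h in TAp73-/- cells numbered 1 (Ugp2) with an offset of 50, the deposited values, 75th percentile scaling, no filter, the 0.01 filter or the mean over probes. At 8 h they numbered 1 without background correction or with an offset of 50, 2 on the deposited values and 3 with the 0.01 filter, all among Ugp2, Dld and Dlat. In TAp73+/+ cells they were 1 at 4 h and at 8 h with the 0.01 filter and 1 at 8 h with 75th percentile scaling. Differences in response between genotypes at 4 h were called for 2 members (Pfkp and Ppp1r3g) without background correction, with an offset of 50 or on the deposited values, and for 1 (Pfkp) with 75th percentile scaling or the 0.01 filter. The Ppp1r3g difference rests on untreated TAp73+/+ arrays that were not above background. At 8 h such differences were called for 2 (Eno2 and Ppp1r3g) with an offset of 50 or on the deposited values and 1 (Eno2) with the 0.01 filter.

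Leaving out 1 array gave 0 to 1 lower members at 4 h and 0 to 2 at 8 h in TAp73-/- cells, 1 to 2 at each time in TAp73+/+ cells, 0 to 3 lower between genotypes at 4 h, 3 to 7 higher and 1 to 4 lower between genotypes at 8 h, 0 to 2 differences in response at 4 h, and 2 to 11 higher for 8 h against 4 h in each genotype. The main counts at hypoxia ran over 6 to 9 and 12 to 18 higher in TAp73-/- cells and 10 to 13 and 15 to 19 in TAp73+/+ cells. With 2 arrays per group, a group left with 1 array is assumed to vary like the others.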
